A study of Rattus norvegicus with 6 samples.

Results

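The genes described here encode 10 proteins of the hair cell (HC) ribbon synapse, the release site through which the sensory cells of the inner ear pass their signal to the vestibular nerve. They were taken by symbol from the table of gene counts, which held 32883 genes, and all 10 were found and all 10 were among the 14352 genes with enough counts to be tested. RNA-seq was done on the vestibular sensory epithelium of 6 adult male Long-Evans rats. The 3 control rats drank plain water and the 3 IDPN-4wk rats were given 3,3'-iminodipropionitrile (IDPN, 20 mM in the drinking water) for 4 weeks, and IDPN is an ototoxic nitrile that damages HCs. From each rat the 2 utricles and 6 cristae were pooled, so a library is 1 animal, and it holds HCs together with supporting cells and whatever nerve endings, glia and stroma stayed with the dissected tissue. Library totals ran from 13358678 to 18561991 counts and the 6 libraries shared 1 batch label. The comparison addresses how 4 weeks of IDPN altered the RNA level of the synaptic genes.

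At a ribbon synapse, an electron-dense body, the ribbon, holds a halo of synaptic vesicles above the release site. Depolarisation opens L-type calcium channels clustered beneath the ribbon, and the calcium that enters triggers fusion of vesicles filled with glutamate, without the synaptotagmin-based sensor that most neurons use for fast release. Vestibular HCs carry ribbons in both types of HC, with type I cells enclosed by a calyx of the afferent nerve.

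Of the 10 genes, 5 were lower in the IDPN-4wk rats (Otof, Slc17a8, Cacna1d, Cabp2 and Rims2) and 0 were higher, also by DESeq2 and limma-voom. A call required a Benjamini-Hochberg adjusted p (Padj, edgeR quasi-likelihood test over all genes) under 0.05 and a fold change over 1.5. Over all genes tested, 9.71% were called, 6.62% lower and 3.09% higher. Slc17a8 had the greatest change of the 10, to 17.0% of its control level, and Ctbp2, the gene of the ribbon protein RIBEYE, was at 105% of it. The counts of Ctbp2 hold RIBEYE together with a corepressor from the same gene. In 8 of the 10 genes every IDPN-4wk library lay below every control library, against 19.3% of all genes tested, and in 0 of the 10 did every IDPN-4wk library lie above, against 18.5%. At an unadjusted p under 0.05 the same test gave 7 lower and 0 higher, against 17.4% lower and 15.6% higher over all genes tested. On the log2 scale the median change was -0.75 for the 10 genes and 0.02 for all genes tested. In bulk tissue, fewer HCs and less RNA per HC cannot be told apart.

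Values are library-scaled count levels, written CPM, with TMM scaling. They are not divided by transcript length, so no gene is called more or less abundant than another. Sums over a list and shares of the CPM of Otof are used only to compare libraries. Values are given in the order control replicates 1, 2 and 3 and then IDPN-4wk replicates 1, 2 and 3.

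**Figure D1:**
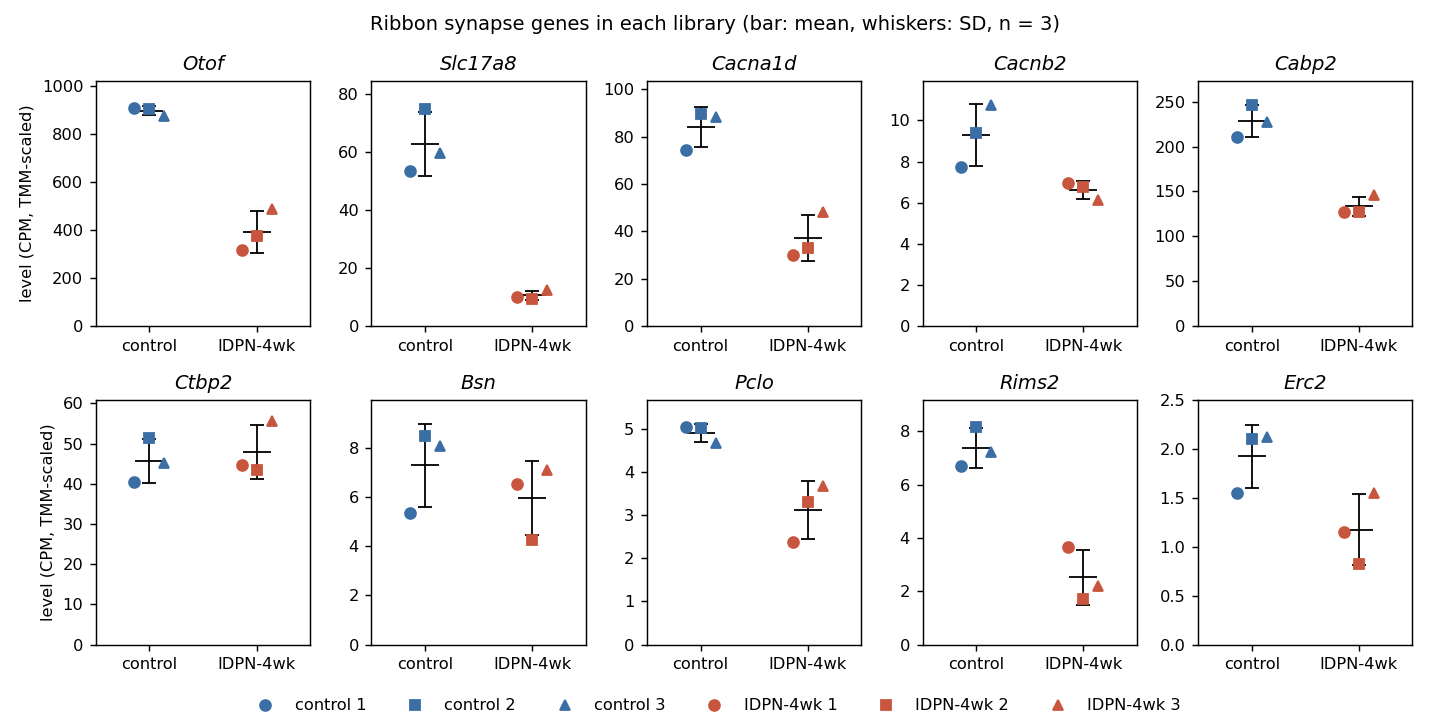
Level of each ribbon synapse gene in CPM (TMM-scaled, linear axes from 0) in the 3 control libraries (blue) and the 3 IDPN-4wk libraries (red), with the mean and SD of each group. The groups stand apart for Otof, Slc17a8, Cacna1d, Cabp2 and Rims2, and they overlap for Ctbp2 and Bsn.

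Otof and Slc17a8 serve the vesicle. Otof (ENSRNOG00000009967) encodes otoferlin, the multi-C2-domain calcium sensor of vesicle fusion and replenishment in HCs. It was at 908, 905 and 875 CPM in the controls and at 316, 376 and 488 CPM in the IDPN-4wk rats. The means were 896 ± 18.2 and 393 ± 87.3 CPM (SD, n = 3), and the controls were much closer together than the IDPN-4wk rats, none of which reached the control range. The log2-Fold change was -1.19 (SE 0.13, Padj = 0.000165 by edgeR), which leaves 43.9% of the control level. The 205 bases before the first annotated base of Otof are printed from the RefSeq promoter table (GRCr8 chr6:31647664-31647868, plus strand), to show the upstream sequence of the gene by which HC exocytosis is best known. Capitals mark a match to the E-box letters CAGNTG on either strand.
Otof: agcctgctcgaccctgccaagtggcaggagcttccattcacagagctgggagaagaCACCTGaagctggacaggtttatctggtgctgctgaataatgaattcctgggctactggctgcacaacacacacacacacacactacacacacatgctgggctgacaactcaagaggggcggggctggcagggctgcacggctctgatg

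Slc17a8 (ENSRNOG00000007581) encodes VGLUT3, the transporter that loads HC vesicles with glutamate. Its levels were 53.4, 74.9 and 59.5 CPM in the controls against 10.1, 9.39 and 12.4 CPM in the IDPN-4wk rats. The highest IDPN-4wk library was thus far under the lowest control library. The log2-Fold change of -2.56 (SE 0.15, Padj = 8.48e-06 by edgeR) had the 6th smallest p of the 14352 genes tested, and was a 5.89-fold lower level. Within each library, Slc17a8 stood at 5.88%, 8.27% and 6.80% of the CPM of Otof in the controls and at no more than 3.21% in the IDPN-4wk rats, so it was lower relative to Otof as well. The 250 bases before its RefSeq start (GRCr8 chr7:25935411-25935660, minus strand, written in the direction of the gene) hold 2 matches to CAGNTG, in capitals, and are shown because this gene had the greatest change. That start lies inside the annotated span of the gene.
Slc17a8: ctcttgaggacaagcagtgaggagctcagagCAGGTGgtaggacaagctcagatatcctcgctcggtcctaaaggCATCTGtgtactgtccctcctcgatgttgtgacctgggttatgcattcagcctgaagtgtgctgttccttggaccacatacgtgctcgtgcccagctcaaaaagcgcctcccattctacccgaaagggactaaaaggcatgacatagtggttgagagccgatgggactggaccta

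Calcium entry is the work of the next 3 genes. Cacna1d (ENSRNOG00000013147), the pore-forming subunit of the L-type channel of HCs, was at 74.5, 89.7 and 88.3 CPM in controls and at 29.8, 33.2 and 48.1 CPM in IDPN-4wk rats. The groups did not overlap, and the log2-Fold change was -1.18 (SE 0.16, Padj = 0.000513 by edgeR). Relative to Otof the groups overlapped, with 8.20% to 10.1% of the CPM of Otof in the controls and 8.83% to 9.85% in the IDPN-4wk rats. Cacna1d is also used by neurons and other cells.

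Cabp2 (ENSRNOG00000018339), a calmodulin-like protein that slows the inactivation of the HC channel, was at 211, 247 and 227 CPM in controls and at 127, 128 and 146 CPM in IDPN-4wk rats. All IDPN-4wk values were well under the control values. Its log2-Fold change of -0.77 had the smallest error of the 10 genes (SE 0.08, Padj = 0.000167 by edgeR) and left 58.5% of the control level, a smaller change than those of Otof and Cacna1d. Tested against a fold of 1.5 instead of no change (glmTreat), it did not pass (Padj = 0.138). As a share of the CPM of Otof it went from 23.2%, 27.2% and 25.9% in the controls to 40.2%, 34.0% and 29.8%, with no overlap. For comparison with the sequence before Otof, the 250 bases before the start of Cabp2 (GRCr8 chr1:210803861-210804110, plus strand) have 1 match to CAGNTG, in capitals.
Cabp2: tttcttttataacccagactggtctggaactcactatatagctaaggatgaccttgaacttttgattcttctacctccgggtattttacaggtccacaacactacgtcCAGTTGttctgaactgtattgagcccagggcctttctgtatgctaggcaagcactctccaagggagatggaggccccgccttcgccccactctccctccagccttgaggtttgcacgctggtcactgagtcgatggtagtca

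Cacnb2 (ENSRNOG00000018378) encodes the auxiliary beta subunit that brings the channel to the HC membrane. It was at 7.75, 9.37 and 10.8 CPM in controls and at 6.97, 6.76 and 6.12 CPM in IDPN-4wk rats. The groups did not overlap but lay close, and the log2-Fold change of -0.49 (SE 0.19) did not pass the test (Padj = 0.0951 by edgeR). The interval of 2 SE around it ran from -0.86 to -0.11. These values rest on 95 to 152 counts a library.

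The remaining 5 genes encode the ribbon and the scaffold of the release site. Ctbp2 (ENSRNOG00000017326) yields RIBEYE, the main protein of the ribbon, from an alternative promoter, and also a transcriptional corepressor found in most cells. The gene-level counts hold both products together. Its levels of 40.6, 51.4 and 45.1 CPM in controls and 44.6, 43.4 and 55.7 CPM in IDPN-4wk rats overlapped throughout. The log2-Fold change was 0.07 (SE 0.12, Padj = 0.738 by edgeR) with an interval of 2 SE from -0.17 to 0.31. For both products together, a fall of the size seen for Cabp2 lay outside it. Whether the RIBEYE product alone fell cannot be read from these counts. Ctbp2 went from between 4.46% and 5.68% of the CPM of Otof in the controls to between 11.4% and 14.1% in the IDPN-4wk rats.

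Rims2 (ENSRNOG00000004201), a scaffold that tethers calcium channels and primes vesicles, was the only one of these 5 to pass both thresholds. Its 6.72, 8.18 and 7.22 CPM in controls stood against 3.67, 1.70 and 2.19 CPM in IDPN-4wk rats. All 3 IDPN-4wk libraries were lower than all controls, replicate 1 the least so. The log2-Fold change was -1.57 (SE 0.29, Padj = 0.00403 by edgeR), the second greatest of the 10 genes, and rested on 33 to 117 counts a library.

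Bsn (ENSRNOG00000030714) and Pclo (ENSRNOG00000005726) encode bassoon, which anchors the ribbon, and the related giant scaffold piccolo. Bsn was at 5.36, 8.46 and 8.07 CPM in controls and at 6.54, 4.23 and 7.08 CPM in IDPN-4wk rats. The groups overlapped (log2-Fold change -0.30, SE 0.26, Padj = 0.458 by edgeR), and the interval of 2 SE, from -0.81 to 0.22, includes a fall of the size seen for Cabp2. Leaving out 1 library moved the value of Bsn to between -0.48 (control replicate 1 left out) and -0.097 (IDPN-4wk replicate 2 left out), and it was at -0.18 when control replicate 2 was dropped and at -0.46 when IDPN-4wk replicate 3 was. Pclo was at 5.04, 5.03 and 4.67 CPM in controls and at 2.37, 3.30 and 3.67 CPM in IDPN-4wk rats. It did not overlap between groups, yet its log2-Fold change of -0.65 (SE 0.25) missed the threshold (Padj = 0.0954 by edgeR). The 250 bases before Bsn (GRCr8 chr8:117754413-117754662, minus strand, in the direction of the gene) have no match to CAGNTG and are shown beside those of the genes that fell. Cacna1d, which was called, also has no match, while Ctbp2, Pclo and Erc2, which were not called, have matches.
Bsn: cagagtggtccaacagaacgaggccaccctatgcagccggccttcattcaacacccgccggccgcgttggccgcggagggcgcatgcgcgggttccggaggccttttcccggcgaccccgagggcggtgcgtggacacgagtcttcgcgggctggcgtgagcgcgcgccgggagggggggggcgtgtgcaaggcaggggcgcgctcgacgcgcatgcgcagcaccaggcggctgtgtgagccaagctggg

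Erc2 (ENSRNOG00000015148), an active zone scaffold of the ELKS family, had the fewest counts, 24, 30 and 30 in the controls and 16, 16 and 24 in the IDPN-4wk rats. Scaled to CPM these were 1.55, 2.10 and 2.12 against 1.15, 0.825 and 1.55, which all but touch between control replicate 1 and IDPN-4wk replicate 3. The log2-Fold change of -0.72 had the widest error of the set (SE 0.38, Padj = 0.212 by edgeR), so a change of the size seen for Otof was within its interval of 2 SE, from -1.47 to 0.03. The 5 genes that were called had 33 to 14065 counts a library and the 5 that were not had 16 to 865. Among the latter only Ctbp2 was measured with an error as small as that of Otof (SE 0.12 and 0.13). Bsn, Pclo, Rims2 and Erc2 are also used at the synapses of neurons.

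**Figure D2:**
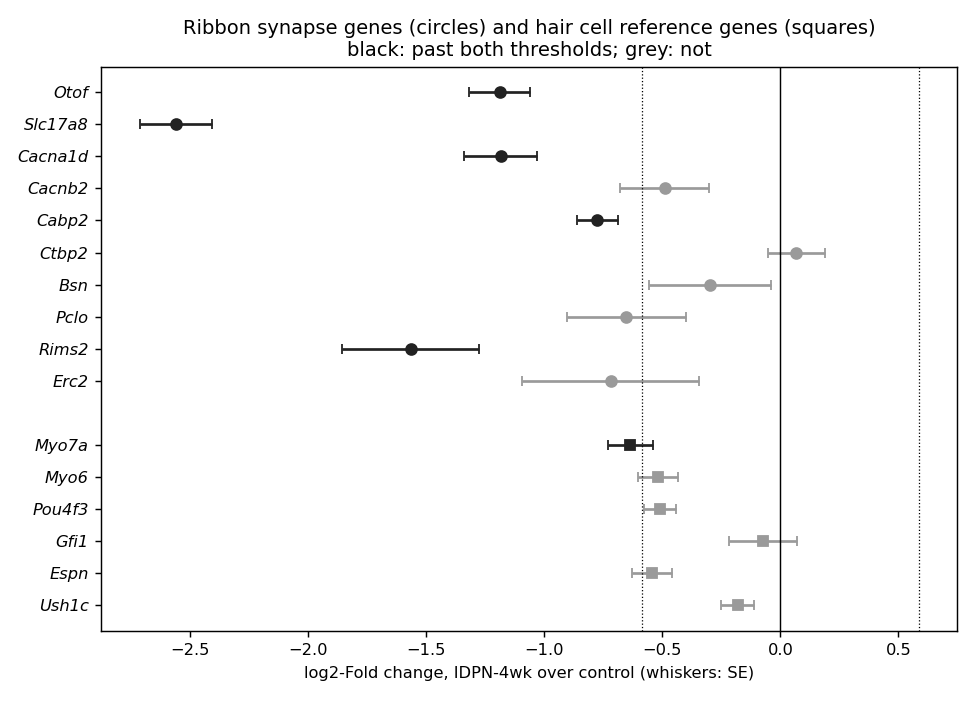
The log2-Fold change of IDPN-4wk over control (x axis, whiskers 1 SE) for the 10 ribbon synapse genes (circles) and 6 general HC genes (squares), with dotted lines at a fold of 1.5 and black symbols for genes past both thresholds. Slc17a8 lies farthest to the left at -2.56, Ctbp2 lies to the right of 0 at 0.07, and Myo7a is the one general HC gene in black.

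As a reference for HC RNA in each library, 6 general HC genes were used, Myo7a and Myo6 (unconventional myosins), Pou4f3 and Gfi1 (transcription factors), Espn and Ush1c (a bundle actin cross-linker and a scaffold). Of these, 1 of 6 was called lower, Myo7a (log2-Fold change -0.64, Padj = 0.00109 by edgeR). Myo6 (-0.52, Padj = 0.00183 by edgeR), Pou4f3 (-0.51, Padj = 0.000601) and Espn (-0.54, Padj = 0.00132) passed the Padj limit and missed only the fold threshold. In 5 of 6 the groups did not overlap, all lower in IDPN-4wk, against 19.3% of all genes tested. Myo7a lost its call without control replicate 2 (log2-Fold change -0.58) and with scaling by library totals alone (-0.53). Gfi1 overlapped, at 68.7 to 94.0 CPM in controls and 60.1 to 85.4 CPM in IDPN-4wk rats. Their geometric mean was 264, 290 and 266 CPM in controls and 191, 201 and 225 CPM in IDPN-4wk rats, a log2 difference of -0.41 (two-sided exact permutation test, p = 0.1, the smallest that 3 against 3 allows). A further list of 10 HC markers, mostly of the hair bundle, had 7 called, all lower, with a geometric mean lower by a log2 difference of -1.28. The HC lists thus differed from each other in size of change, and ratios to both were computed.

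When each member was divided by the mean of the 6 general HC genes of its own library, Slc17a8 differed by -2.14 on the log2 scale, Rims2 by -1.21, Otof and Cacna1d by -0.80 each and Cabp2 by -0.36, with no overlap between groups. Each of these 5 ratios had p = 0.1 in the two-sided exact permutation test, as did those of Pclo (-0.27) and Ctbp2, and with 3 against 3 the test cannot pass 0.05. The ratio of Ctbp2 was higher in every IDPN-4wk library, by 0.48. Ctbp2 itself was at a log2-Fold change of 0.07, while the mean of the 6 general HC genes had a log2 difference of -0.41. Cacnb2 (-0.07, p = 0.8), Bsn (0.11, p = 0.5) and Erc2 (-0.33, p = 0.3 in the same exact permutation test) overlapped. Single libraries decided some of these small values. Cacnb2 was at -0.17 or 0.064 when control replicate 1 or 3 was left out and at -0.16 or 0.056 when IDPN-4wk replicate 1 or 3 was. Any 1 library moved Bsn by over 1.5 times, to -0.070, 0.19 or 0.22 when control replicate 1, 2 or 3 was dropped and to -0.026, 0.33 or 0.037 when IDPN-4wk replicate 1, 2 or 3 was. Erc2 was at -0.12 without IDPN-4wk replicate 2 and Pclo at -0.14 without IDPN-4wk replicate 1. Divided instead by the other 10 HC markers, Slc17a8 (-1.27) and Rims2 (-0.34) again had negative differences and Ctbp2 a positive one (1.34), whereas Otof and Cacna1d were at 0.07 each, Cabp2 at 0.50, Erc2 at 0.53, Pclo at 0.60, Cacnb2 at 0.80 and Bsn at 0.98. A change of reference shifts the 10 ratios by 1 amount, and 6 of them, those of Otof, Cacna1d, Cacnb2, Cabp2, Pclo and Erc2, were negative with the first reference and positive with the second. Divided by Myo7a alone, Slc17a8 was at -1.91, Rims2 at -0.98, Otof and Cacna1d at -0.57 each, Cabp2 at -0.13, Erc2 at -0.10, Pclo at -0.041, Cacnb2 at 0.16, Bsn at 0.34 and Ctbp2 at 0.71.

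Several members have relatives that do the same work elsewhere, and the ratio of a member to its relatives does not depend on how the libraries were scaled. Cacnb2 against the summed other beta subunits (Cacnb1, Cacnb3 and Cacnb4) differed by -0.92 on the log2 scale, with no overlap (p = 0.1, two-sided exact permutation test, the smallest possible). Cacnb3, the most counted of the 3 relatives, was at 56.7, 58.7 and 43.8 CPM in controls and at 77.0, 74.1 and 62.5 CPM in IDPN-4wk rats, a log2-Fold change of 0.42 (Padj = 0.0319 by edgeR) that stayed under the fold threshold. Cacna1d against Cacna1c, the L-type pore of muscle and many other cells, differed by -0.89 with no overlap (p = 0.1 in the exact permutation test), and Cacna1c alone by -0.31 (Padj = 0.387 by edgeR). The value of Cacna1c was at -0.18 when control replicate 1 was left out and at -0.20, -0.19 or -0.58 when IDPN-4wk replicate 1, 2 or 3 was.

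Ctbp2 against Ctbp1, a corepressor that is its closest relative, differed by -0.19 with overlap (p = 0.2, exact permutation test) and by -0.10 without IDPN-4wk replicate 2. Erc2 against Erc1, the ELKS protein of most cells, differed by -0.73 with overlap (p = 0.2, exact permutation test), while Erc1 alone was at a log2-Fold change of -0.02. Rims2 against Rims1 differed by -2.10 with no overlap (p = 0.1, exact permutation test), but Rims1 was at 0.349 to 1.24 CPM, little above the 0.155 to 0.216 CPM that 3 counts amount to. Otof against its ferlin relatives Dysf and Myof differed by -0.72 without overlap (p = 0.1, exact permutation test), although Dysf itself was lower in IDPN-4wk (-0.85, Padj = 0.0129 by edgeR). Cabp2 against the other CaBP genes differed by -0.51 (p = 0.1, exact permutation test), Slc17a8 against Slc17a6 and Slc17a7 by -0.80 with overlap (p = 0.5, exact permutation test), and in both the relatives had very few counts. The Slc17a8 ratio was at -0.082 when IDPN-4wk replicate 3 was dropped and at -1.40 when replicate 1 of that group was, and that of Cabp2 at -0.29 without IDPN-4wk replicate 1. Bsn against Pclo differed by 0.38 with overlap (p = 0.4, exact permutation test), and by 0.11 or 0.66 when IDPN-4wk replicate 1 or 2 was dropped and 0.15 when control replicate 1 was. These were 9 ratios, and no p could pass 0.05.

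**Figure D3:**
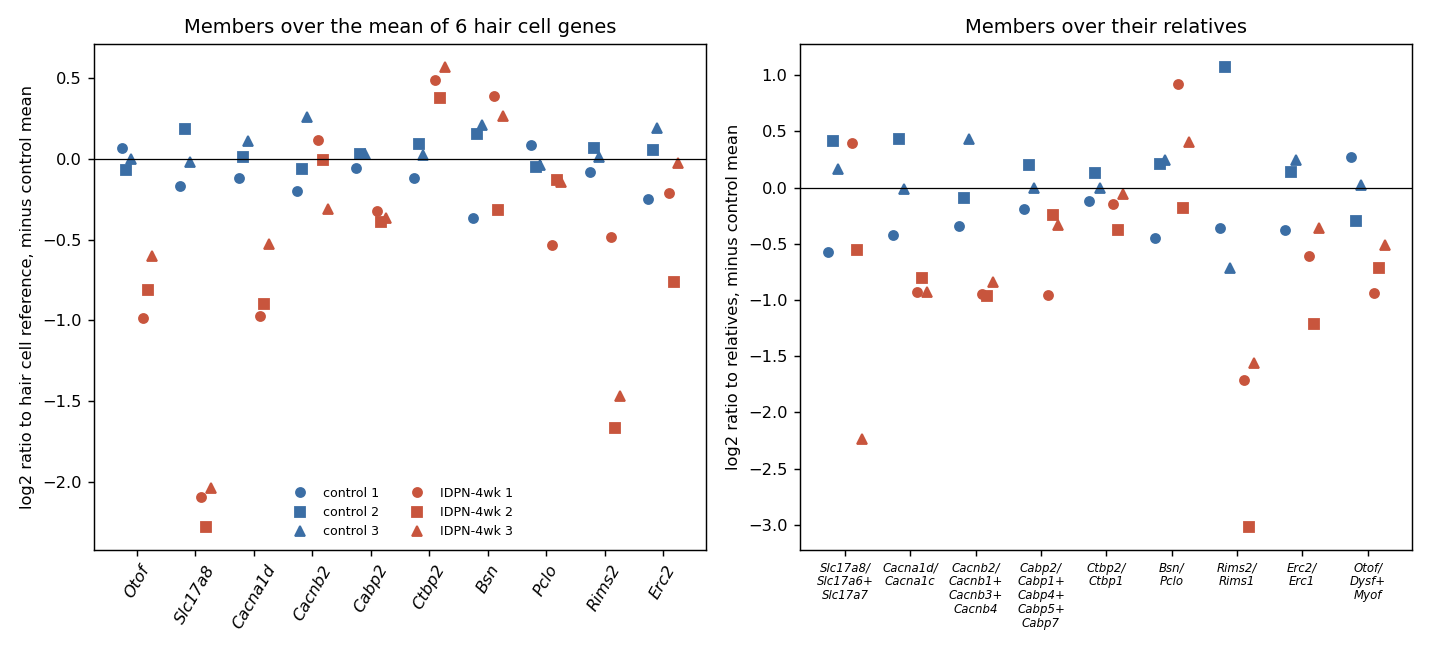
Log2 ratio of each member to the geometric mean of 6 general HC genes (left) and to its relatives (right) in each library, set to 0 at the control mean, with controls in blue and IDPN-4wk rats in red. On the left Slc17a8, Rims2, Otof, Cacna1d, Cabp2 and Pclo are under the controls and Ctbp2 is above them, and on the right the ratios of Cacna1d, Cacnb2, Cabp2, Rims2 and Otof do not overlap.

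The other genes of the pathway were read from lists of its parts. Over all genes tested, 6.62% were called lower and 3.09% higher. Among the partners of the calcium channel, 3 of 13 tested were called, all lower (median log2-Fold change -0.20). They were Cacna2d1 (-1.16, Padj = 0.00232 by edgeR) and Cacna2d3 (-1.66, Padj = 0.0266), extracellular alpha2delta subunits, and Cacna1e (-1.61, Padj = 0.00967), the pore of the R-type channel. Cacna2d1 was at 96.4, 118 and 91.4 CPM in controls and at 32.4, 62.5 and 41.6 CPM in IDPN-4wk rats, and the groups were apart. Tested against a fold of 1.5 (glmTreat), Cacna2d1 (Padj = 0.0503), Cacna2d3 (Padj = 0.191) and Cacna1e (Padj = 0.0782) did not pass. The call of Cacna2d3 was also lost without control replicate 2 (Padj = 0.0910) or without control replicate 3 (Padj = 0.0650).

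Among further active zone scaffolds, 1 of 12 was called, near the 6.62% called lower over all genes tested, and the median was 0.01. The gene that fell was Tspoap1, a RIM-binding protein (log2-Fold change -1.11, Padj = 0.000266 by edgeR), whose 30.3, 26.8 and 30.2 CPM in controls stood against 12.0, 12.9 and 15.6 CPM. Its relative Rimbp2, which links RIMs to calcium channels in HCs, had a smaller difference (-0.45, Padj = 0.0148 by edgeR) that did not reach the fold threshold. The median of this list was thus near that of all genes tested.

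In the vesicle fusion list, 7 of 26 tested were lower and 2 higher, with a median of -0.26. The lower genes with the smallest p were Syt1 (-1.79, Padj = 0.000155 by edgeR), the calcium sensor of neuronal release, Cadps2 (-1.83, Padj = 0.000335), a vesicle priming factor, Snap25 (-1.44, Padj = 0.000540), a plasma membrane SNARE, and Sv2a (-0.67, Padj = 0.00362), a vesicle glycoprotein. Rab3b, a vesicle GTPase, was higher, at 3.16, 2.66 and 2.05 CPM in controls and 8.56, 5.62 and 7.98 CPM in IDPN-4wk rats (log2-Fold change 1.48, Padj = 0.00304 by edgeR). The other higher gene, named after its values were seen, was the SNARE Stx1a (0.83, Padj = 0.0202 by edgeR), which lost its call in 3 of the 6 fits that left out 1 library, those without control replicate 2, IDPN-4wk replicate 2 or IDPN-4wk replicate 3. Sv2a lost its call without IDPN-4wk replicate 1 (log2-Fold change -0.57) and with libraries scaled by their totals alone (-0.56).

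Wrb, Camlg and Asna1, which act together to insert tail-anchored proteins such as otoferlin into membranes, had log2-Fold changes of -0.03, -0.02 and -0.04, with Padj of 0.820, 0.935 and 0.739 by edgeR. Otof thus fell while the genes for membrane insertion did not pass the test. In that list Dysf was the 1 of 5 called, and it lost the call without control replicate 2 (Padj = 0.0521). Vesicle retrieval genes had 1 of 15 lower, Dnm3, a dynamin (-1.22, Padj = 0.000950 by edgeR), and the other 14 not called. That count is near the 6.62% called lower over all genes tested. Of the vesicular transporters beside Slc17a8, 2 were tested and neither was called, and at an unadjusted p under 0.05 there was 1, Slc17a6 (log2-Fold change -1.50, Padj = 0.0995 by edgeR), the VGLUT2 gene of neurons, at 0.991 to 1.49 CPM in controls and 0.144 to 0.837 CPM in IDPN-4wk rats. Without IDPN-4wk replicate 3, Slc17a6 was called (log2-Fold change -2.47, Padj = 0.0192 by edgeR).

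In the list of genes known from the postsynaptic side, 4 of 10 tested were called, all lower, with a median of -0.37. Which cells of the tissue carried these RNAs was not tested. Gria4 (log2-Fold change -1.96, Padj = 8.48e-06 by edgeR) and Gria2 (-1.29, Padj = 9.73e-05) are AMPA receptor subunits, and Shank2 (-1.06, Padj = 0.000207) and Shank1 (-1.69, Padj = 0.0273) are scaffolds. Gria4 was at 98.3, 90.4 and 96.3 CPM in controls and at 22.4, 21.0 and 29.9 CPM in IDPN-4wk rats, so this difference was second only to that of Slc17a8 when set beside the 10 members. Shank1 rested on few counts and lost its call in all 6 fits that left out 1 library (Padj from 0.0507 to 0.128).

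**Figure D4:**
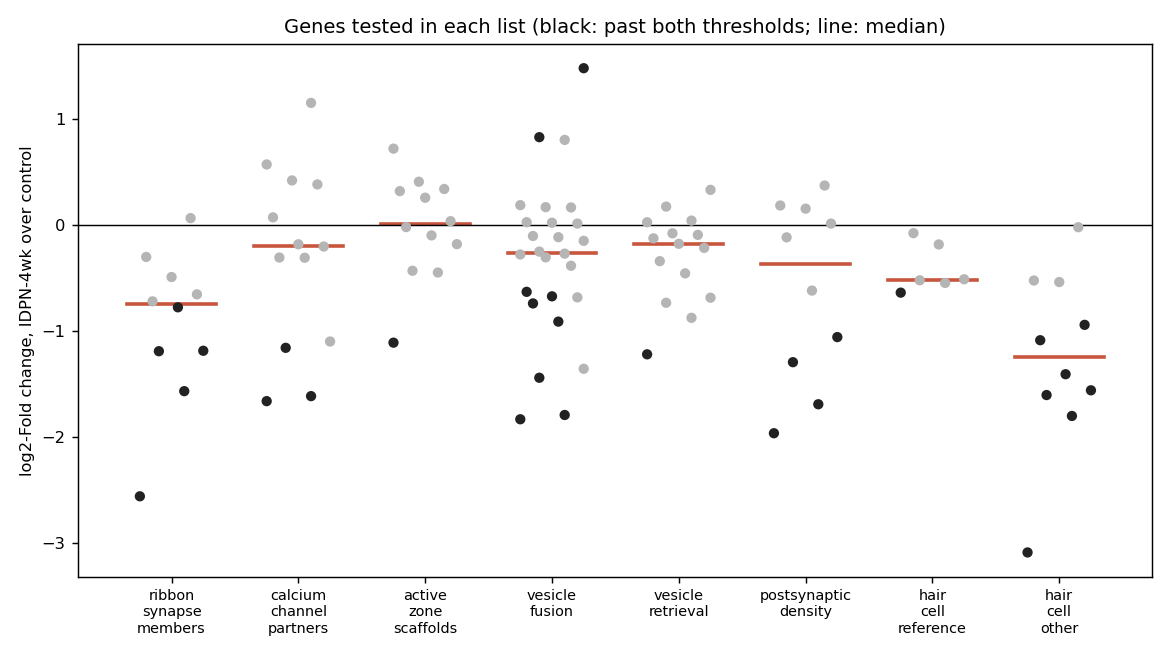
The log2-Fold change of IDPN-4wk over control for every gene tested in each list (points, black when past both thresholds) with the median of the list (red line). The median of the 10 ribbon synapse genes is -0.75, that of the further active zone scaffolds 0.01 and that of the other HC markers -1.24.

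Some markers of HC types and of other cells in the tissue differed too, and their part in these results was not tested. The counts below stand beside 6.62% called lower and 3.09% called higher over all genes tested. The 3 markers of type I HCs were all called lower, with a summed level of 4249 to 5245 CPM in controls and 1094 to 1697 CPM in IDPN-4wk rats. Of the 3 markers of type II HCs, 1 was lower (Calb2), and the sums were 322 to 348 and 280 to 319 CPM. Of 9 genes tested in the neuronal list, 2 were lower, Gap43 (log2-Fold change -4.43) and Isl1 (-0.67). The 2 that were higher were Prph (2.57) and Nefh (2.05). Prph and Nefh were at 0.323 to 0.769 and 0.212 to 0.775 CPM in controls, and Gap43 at 0.144 to 0.901 CPM in IDPN-4wk rats. These ranges reach, or lie little above, the 0.155 to 0.216 CPM that 3 counts amount to. Sums over the 10 genes of the list were 174 to 186 CPM in controls and 114 to 127 CPM in IDPN-4wk rats. Which cells carried the RNA of Isl1 was not tested. In these lists no marker was at 0 in all 6 libraries. The summed levels rest on few genes, with Spp1 giving 96.1% of the type I sum in controls, Anxa4 89.7% of the type II sum and Isl1 54.1% of the neuronal sum. Supporting cell markers had 4 of 10 lower, summing to 10841 to 11968 CPM in controls and 6111 to 7415 CPM in IDPN-4wk rats, of which Otog gave 55.4% and 47.7%. In that list Sox9 lay above the controls in every IDPN-4wk library (Padj = 0.0540 by edgeR). It was at 284 to 317 CPM in controls and 334 to 385 CPM in IDPN-4wk rats. Hes1 was at 29.5 to 31.7 and 31.6 to 45.4 CPM, and both were named after their values were seen. Sox9 and Hes1 were the only 2 of the 10 with a positive log2-Fold change, and the other 8 had a negative one. Schwann cell markers had 1 of 6 lower, summing to 8122 to 10380 and 5389 to 8265 CPM. The dark cell and melanocyte list had 2 of 7 lower, the macrophage list 1 of 7 higher and the stroma list of 5 genes 1 lower and 1 higher, while 0 of 3 endothelial genes were called by edgeR, with 2 at an unadjusted p under 0.05, a limit that 33.1% of all genes tested passed.

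Across the 6 libraries, the genes whose log2 CPM was most like that of Otof were Pcdhga5, a protocadherin (Pearson's r = 0.999), Dync2h1, the motor of intraflagellar transport (0.998), Focad (0.997), Tcte1 (0.997) and Pam, an enzyme of peptide amidation (0.997). The 6 points form 2 groups by treatment, and 652 of the 14352 genes tested had an r of at least 0.95, so such a value is common here. All 5 lay lower in every IDPN-4wk library. Pcdhga5 belongs to a cluster of genes with shared exons, so its counts are uncertain.

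The upstream sequences of 9 of the 10 members were in the RefSeq table, with 11 start sites between them, and Rims2 was not matched. The letters CAGNTG, searched on both strands, the E-box that basic helix-loop-helix factors bind, were found in 6 of the 11 windows of 250 bases before a start, those of Otof, Slc17a8, Ctbp2, Pclo and Erc2 and 1 of the 2 of Cabp2, and in 43.3% of the 33469 windows of this length in the table. The match of Otof begins 194 bases before the start site of the table, which lies a little inside the gene, those of Slc17a8 219 and 175 bases before and that of Cabp2 142 bases before. Both genes that fell and genes that did not pass the test are among the 6. GGGCGG was present in 6 of the 11 windows (30.5% of all windows), TATAAA in 2 (12.9%) and ATTAAT, a POU-type sequence, in 1 (4.71%), each searched on both strands. The windows differed in composition, with 56.4% G+C for Otof and 53.2% for Slc17a8, near the median of 51.2% over all windows, against 72.8% for Bsn and 88.8% for Cacna1d. Matches are a description of these letters and no binding was measured.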

How the data were processed

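RNA-seq of pooled utricles and cristae was done in 3 control and 3 IDPN-4wk rats. According to the submitters' processing notes, the authors mapped reads with STAR 2.5.3a and estimated counts with RSEM 1.3.0, and their methods name the build Rnor6.0. The deposited values were estimated counts per gene (expected counts), already whole numbers. RSEM divides reads that match several genes among them, and the protocol did not keep the strand, so paralogs and overlapping genes are less certain. Total counts of 13358678 to 18561991 set the precision, and 3 counts were worth 0.155 to 0.216 CPM.

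Groups came from the treatment label. The labels give 1 batch. They number no replicates, so numbers follow accession order and pair nothing. Animal codes in the titles have a prefix shared by the IDPN-4wk rats and not by the controls, and its meaning is not stated, so whatever it marks cannot be told apart from treatment. No pair of libraries differed by so little that it could be 1 library.

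From the counts, edgeR 4.0.16 in R 4.3.3 was run on the whole table (filterByExpr with minimum count 10 and minimum total 15, TMM, glmQLFit and glmQLFTest), and calls needed Padj under 0.05 and a fold over 1.5. CPM were computed from these counts. Ratios within a library were compared by two-sided exact permutation tests (scipy 1.17.1). Scripts were tested on simulated data. Alternatives were upper quartile, DESeq2 size factor and library-size scaling, DESeq2 1.42.0, limma-voom 3.58.1, no filter, a mean count of at least 50, glmTreat, Padj alone and leaving out each library. Sequences are from RefSeq on GRCr8, used for upstream windows only.

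Named genes were the 10 members, up to 5 called genes of smallest p in each other list, the relatives, the 6 general HC genes and the 5 genes most like Otof. Rimbp2, Wrb, Camlg, Asna1, Stx1a, Anxa4, Sox9 and Hes1 fall outside this rule and were named after their values were seen. The members and lists were chosen with earlier results of these data known.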

Additional observations from a re-analysis of the deposited data

How the results depend on the processing

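The same 5 members were called under every alternative and in all 6 fits that left out 1 library, except under glmTreat, which called 4 and lost Cabp2 (Padj = 0.138). Requiring a mean count of at least 50 removed Erc2 before testing. The number of changed genes was 1394 in all (68.1% lower), 453 under glmTreat and 2778 by Padj alone, both by construction of the threshold. Scaling by library totals alone moved the median of all genes to 0.13 and the lower share to 50.6% of 1542 calls, while the members' median was -0.64. Leaving out 1 library put that median between -0.92 and -0.68 and Ctbp2 between -0.067 and 0.16, its sign turning when control replicate 1 (-0.013) or IDPN-4wk replicate 3 (-0.067) was dropped. The small ratios of Cacnb2 and Bsn to the general HC genes also turned, to as much as 0.064 and -0.070. Gfi1 turned to 0.035 under library totals alone and ranged from -0.21 to 0.088 when 1 library was left out, with 0.043 without IDPN-4wk replicate 1. Against the other HC markers, the ratios of Otof (0.065), Cacna1d (0.066), Cabp2 (0.50), Erc2 (0.53), Pclo (0.60) and Cacnb2 (0.80) changed sign, since that reference itself was lower by a log2 difference of -1.28 instead of -0.41. Against Myo7a alone only Cacnb2 (0.16) did. Of the called genes named from the pathway lists and the general HC genes, glmTreat lost Cacna2d1, Cacna2d3, Cacna1e, Sv2a, Dysf, Shank1, Stx1a and Myo7a. No paired analysis was run, because the labels carry no replicate numbers. The letters that end the animal codes (LF, NM and RF) recur in both groups, but the labels do not say that they pair animals. With 3 animals a group and under 35 counts a library, Erc2 could not be told from either no change or a fall like that of Otof.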
